A study of Mus musculus with 13 samples.

Results

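Platelet-derived growth factors (PDGFs) and their receptors were followed across mouse retina samples labelled tip, stalk and nonvascular. All probes of the 4 ligand genes Pdgfa, Pdgfb, Pdgfc and Pdgfd and of the 2 receptor genes Pdgfra and Pdgfrb were taken by gene name, which gave 6 of 33413 genes and 10 of 41174 probes. All 6 genes and 10 probes passed the filter on dim signal and were among the 31896 genes and 39354 probes tested. RNA from 6 tip, 4 stalk and 3 nonvascular samples was hybridised on 13 Agilent arrays, each beside a common reference RNA pooled from mouse cells. Tip cells lead a growing vessel sprout, stalk cells trail behind them, and nonvascular retina is the labelled control. The labels give no strain, age, genotype or treatment for any group, do not say how cells were collected and do not tie samples to animals, so p-values measure only the spread between these samples, which may be technical.

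PDGF ligands are secreted dimers that bind receptor tyrosine kinases on neighbouring cells. In the growing retina PDGF-B from endothelium, above all from sprouting vessels, recruits pericytes, which carry the receptor PDGFR-beta and wrap the capillary wall. PDGF-A from retinal neurons acts on astrocytes, which carry PDGFR-alpha and lay down the network that vessels grow along. PDGF-C and PDGF-D are secreted in a latent form and need a protease to cut them before they bind.

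Every level below is a log2 ratio of the sample over the reference RNA on the same array, so 0 means equal signal and levels of different probes cannot be set against each other. The brightest probe stands for its gene, and a difference was called at an adjusted p under 0.05 in limma's moderated test over all genes. Median red signal over background was 105 to 292 on tip, 98.1 to 141 on stalk and 166 to 282 on nonvascular arrays. The scanner read the groups one after another (stalk, tip, nonvascular, with tip replicate 5 on another day), so the order of scanning cannot be told apart from the group. The mean of 12 endothelial genes was 2.55 to 2.86 in tip, 2.99 to 3.15 in stalk and 0.22 to 0.49 in nonvascular arrays, and the mean of 14 ganglion cell genes was 0.48 to 0.92 in tip, −0.17 to 0.70 in stalk and 2.50 to 2.86 in nonvascular arrays. The endothelial surface gene Pecam1 was dim, at −0.26 to 0.23 on all 13 arrays, and was higher in tip than in nonvascular retina by 0.27 (limma, adjusted p = 0.0179). Nonvascular replicate 3 stood apart: 7 of 13 astrocyte genes (53.8%) lay at least 1 log2 unit above both other nonvascular arrays, against 256 of 31764 genes with a value (0.806%). The differences that this array moves most are given with and without it.

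Against nonvascular retina, tip samples differed in 4 of the 6 genes, and so did stalk samples. Pdgfb, Pdgfra and Pdgfrb were higher in both and Pdgfa was lower in both. Among all genes 28% were called in tip against nonvascular retina (11.2% higher, 16.8% lower) and 29.9% in stalk against nonvascular retina (11.3% higher, 18.6% lower). Between tip and stalk, 1 of the 6 genes was called, Pdgfrb, which was 1.65-fold lower in tip, where 2.78% of all genes were called (1.46% higher, 1.32% lower). Of the calls over all genes between tip and stalk, 52.6% were higher in tip, a share that was 33.8% with the red channel alone, 19.5% with median centring and 33.9% with array brightness in the model. Both comparisons with nonvascular retina share the same 3 control arrays.

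**Figure D1:**
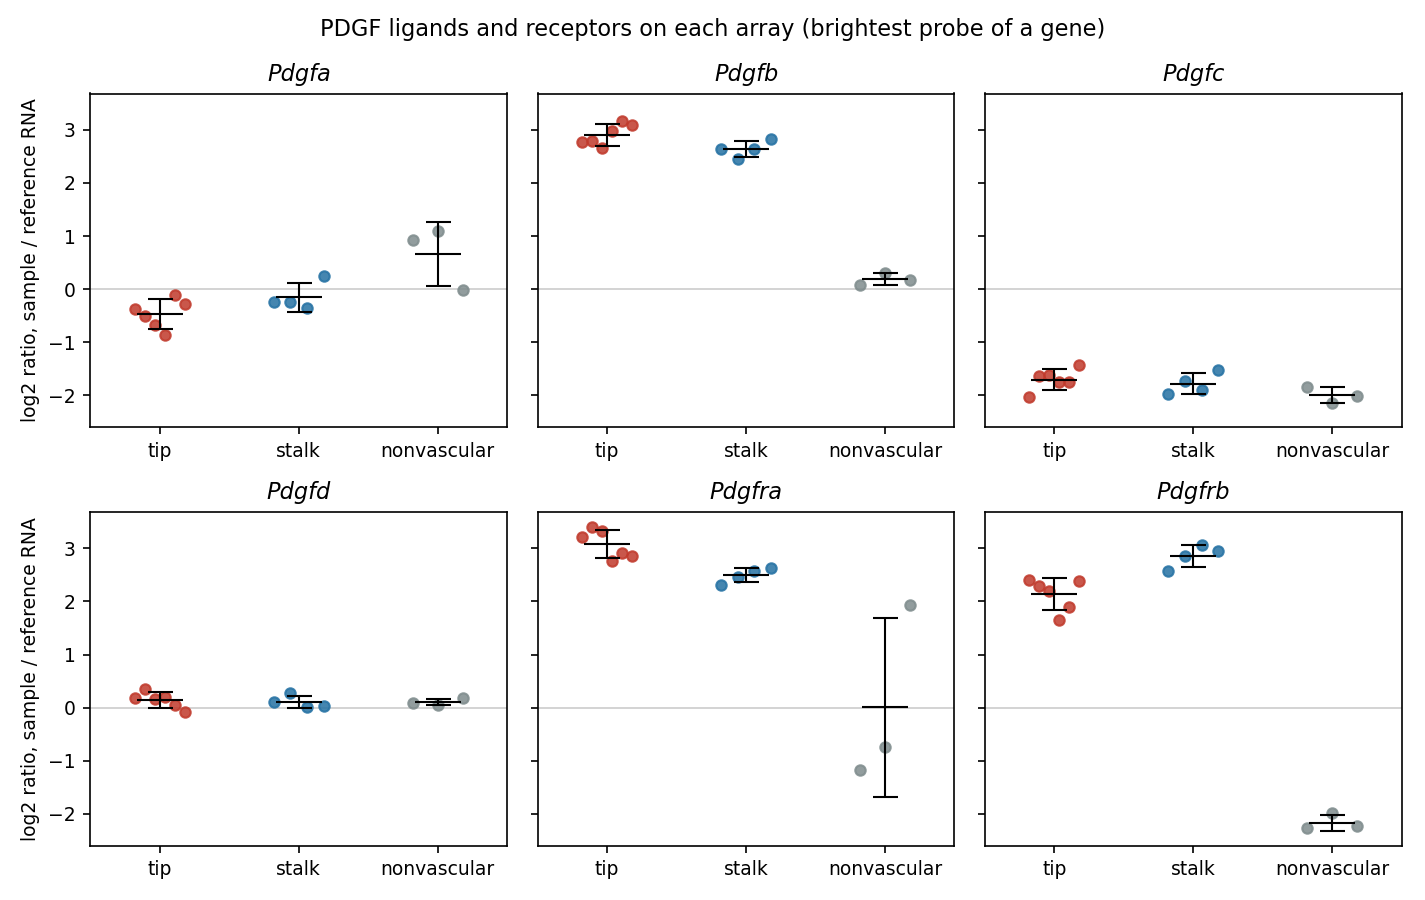
Log2 ratio of sample over reference RNA on the vertical axis for the brightest probe of each gene, with 1 point per array, for tip (n = 6), stalk (n = 4) and nonvascular (n = 3) samples; the long bar is the mean and the whiskers are the SD. Pdgfb and Pdgfrb are high on all tip and stalk arrays and low on all nonvascular arrays, while for Pdgfra nonvascular replicate 3 lies at 1.94, far above the other nonvascular arrays.

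Pdgfrb encodes the receptor of pericytes and had the largest differences of the 6 genes against nonvascular retina. Its log2 ratio in tip ranged between 1.65 and 2.40 with a median of 2.25. The 4 stalk arrays stood at 2.57, 2.85, 3.06 and 2.96. The 3 nonvascular arrays stood at −2.27, −1.99 and −2.22, so no range overlapped another and the order was stalk, tip, nonvascular. The difference of tip minus nonvascular was 4.30 ± 0.16 (SE), a 19.7-fold higher level (limma, adjusted p = 3.09e-09). Stalk minus nonvascular was 5.02 ± 0.18, a 32.5-fold higher level (limma, adjusted p = 1.19e-09). Both differences were among the largest of all 31896 genes, where Pdgfrb ranked 9 from the top in tip and 8 from the top in stalk (15 and 9 without nonvascular replicate 3). Pdgfrb had a single probe, with red signals of 279 to 15900 over background.

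Between tip and stalk, Pdgfrb averaged 2.14 ± 0.30 over the 6 tip arrays (SD) and 2.86 ± 0.21 over the 4 stalk arrays (SD). The difference was −0.72 ± 0.15 (SE), with a 95% confidence interval of −1.04 to −0.40 (limma, adjusted p = 0.0242), and 6 of 6 tip arrays lay below every stalk array. Among all genes 5.48% had tip and stalk ranges that did not overlap (2.73% with tip higher, 2.75% with tip lower). The difference stayed between −0.82 and −0.62 under 24 alternatives, but in 7 of them it was no longer called. These were the red channel alone (adjusted p = 0.0773), median centring (0.183), array brightness in the model (0.169), the replicate number as a block (0.13), and the fits without stalk replicate 2 (0.054), stalk replicate 3 (0.0816) or stalk replicate 4 (0.0559).

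Pdgfb, the ligand of Pdgfrb, was high in both vessel groups. Its log2 ratio in tip ranged between 2.65 and 3.17 with a median of 2.88. The stalk arrays stood at 2.65, 2.45, 2.63 and 2.82, and the nonvascular arrays at 0.08, 0.31 and 0.17. Every tip and stalk array thus lay above every nonvascular array, while tip and stalk overlapped. Tip minus nonvascular was 2.72 ± 0.11 (SE), a 6.58-fold higher level (limma, adjusted p = 6.76e-09). Stalk minus nonvascular was 2.45 ± 0.12, a 5.46-fold higher level (limma, adjusted p = 2.48e-08). In the order of all genes Pdgfb ranked 102 from the top in tip and 184 from the top in stalk (152 and 258 without nonvascular replicate 3). Non-overlapping ranges were found for 27.8% of all genes in tip against nonvascular retina (11% higher, 16.8% lower) and for 37.3% in stalk against nonvascular retina (16% higher, 21.3% lower).

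Pdgfb was 1.21-fold higher in tip than in stalk, with means of 2.90 ± 0.20 over 6 tip arrays (SD) and 2.64 ± 0.15 over 4 stalk arrays (SD), and 6 of 6 tip arrays above the stalk mean. The difference of 0.27 ± 0.10 (SE) had a confidence interval of 0.04 to 0.50 and missed the threshold over all genes (limma, adjusted p = 0.198). It was called with the red channel alone, where it was 0.60 (adjusted p = 0.0421), and with array brightness in the model, where it was 0.47 (adjusted p = 0.0199). Over all 24 alternatives the adjusted p was 0.0199 to 0.623. A second Pdgfb probe, 0.811 kb upstream on the gene's strand, was dim, with red signals of 50.1 to 217 and green signals of 49.0 to 89.7. It gave log2 ratios of −0.07 to 0.28 on the 13 arrays and was called in no comparison (limma over probes, adjusted p = 0.765 for tip minus stalk, 0.716 for tip minus nonvascular and 0.437 for stalk minus nonvascular). With the mean of both Pdgfb probes, tip minus nonvascular was 1.38 and stalk minus nonvascular was 1.27, the lowest of the 24 alternatives.

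Levels of the pericyte receptor moved with the mean of other pericyte genes. The mean of 17 pericyte and smooth muscle genes was 0.39 to 0.60 on tip, 0.87 to 1.02 on stalk and −0.95 to −0.86 on nonvascular arrays, in the same order of groups as Pdgfrb. Of these 17 genes, 8 were called lower and none higher in tip than in stalk, where 1.32% of all genes were lower. The median difference of the 17 was −0.25 against 0.00 for all genes. The 8 included Foxc1, a forkhead transcription factor of mural cells (−1.15), Vtn, which encodes the matrix protein vitronectin (−1.17), and Higd1b, a pericyte marker (−1.10). Among them were also Rgs5, a regulator of G protein signalling (−0.98), and Cspg4, the NG2 proteoglycan of pericytes (−0.77). Foxd1 (0.28), Mcam (0.21) and Cnn1 (0.10) were instead higher in tip without a call, and every tip array of Mcam lay above every stalk array. Without nonvascular replicate 3 the count was again 8 lower, and over the 24 alternatives 3 to 8 were lower and at most 1 higher, with 3 lower both with array brightness in the model and with the replicate block. Among all genes 11.2% were higher in tip and 11.3% in stalk than in nonvascular retina. Of the 17 genes, 12 were higher in tip and 13 were higher in stalk, and none was lower. Among them, the cell surface gene Mcam (3.51) and the potassium channel gene Kcnj8 (3.12) were higher in tip. Some endothelial genes were lower in tip than in stalk as well: 3 of the 12 were called lower and none higher, with a median difference of −0.32 and 2 to 4 lower over the 24 alternatives. The 3 were the tight junction gene Cldn5 (−1.16), the VEGF receptor gene Flt1 (−0.94) and the endothelial matrix gene Egfl7 (−0.41). Pecam1 (0.15), Tie1 (0.10) and Erg (0.05) went the other way, without a call. The part of pericyte and endothelial RNA in the Pdgfrb difference was not tested. In bulk samples fewer cells of a type and less RNA per cell cannot be told apart.

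**Figure D2:**
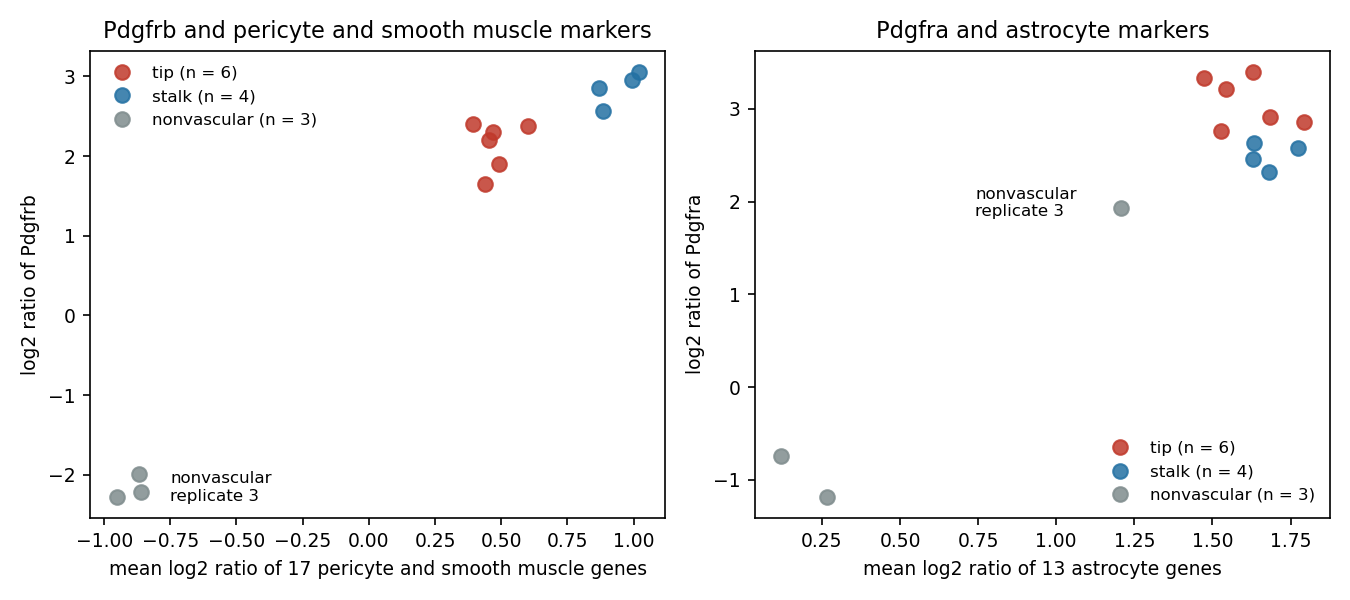
Each point is 1 array, with the log2 ratio of Pdgfrb against the mean log2 ratio of 17 pericyte and smooth muscle genes on the left, and the log2 ratio of Pdgfra against the mean of 13 astrocyte genes on the right, for tip (n = 6), stalk (n = 4) and nonvascular (n = 3) arrays. On the left the 3 groups form separate clusters, and on the right nonvascular replicate 3 lies between the vessel arrays and the other nonvascular arrays.

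Pdgfra, the receptor that marks retinal astrocytes, was higher in tip and in stalk than in nonvascular retina. Its log2 ratio in tip ranged between 2.77 and 3.40 with a median of 3.06. The stalk arrays stood at 2.31, 2.46, 2.58 and 2.63, and the nonvascular arrays at −1.18, −0.74 and 1.94. All tip arrays lay above all stalk arrays and these above all nonvascular arrays, but nonvascular replicate 3 was close to the stalk arrays. Tip minus nonvascular was 3.07 ± 0.50 (SE), an 8.42-fold higher level (limma, adjusted p = 0.000372). Stalk minus nonvascular was 2.49 ± 0.54, a 5.62-fold higher level (limma, adjusted p = 0.00302). Both were larger without nonvascular replicate 3, at 4.04 for tip (adjusted p = 1.95e-08) and 3.46 for stalk (adjusted p = 9.03e-08). By size of the difference Pdgfra ranked 65 from the top of all genes in tip and 177 from the top in stalk, and without nonvascular replicate 3 it ranked 24 in tip and 80 in stalk. Its red signal was saturated on 1 array, tip replicate 1.

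Pdgfra was 1.50-fold higher in tip than in stalk, with means of 3.08 ± 0.27 over 6 tip arrays (SD) and 2.50 ± 0.14 over 4 stalk arrays (SD), and the ranges did not overlap. The difference of 0.58 ± 0.45 (SE) had an interval of −0.40 to 1.57 and was not called (limma, adjusted p = 0.545). All 3 groups share one estimate of the spread, and the SD of the nonvascular arrays was 1.69 for this gene, so the SE was 0.45 where the median over all genes was 0.0793. The difference was called with only tip and stalk in the fit (adjusted p = 0.0482) and without nonvascular replicate 3 (adjusted p = 0.0468), within a range of 0.0468 to 0.86 over the 24 alternatives. A second Pdgfra probe lies 34.28 kb upstream, was dim with red signals of 66.2 to 203, and gave −0.15 to 0.07 on the 13 arrays with no call (limma over probes, adjusted p = 0.989, 0.543 and 0.584 for tip minus stalk, tip minus nonvascular and stalk minus nonvascular). With the mean of both probes, tip minus nonvascular was 1.51 and stalk minus nonvascular was 1.22.

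Other astrocyte genes moved along with Pdgfra in part. The mean of 13 astrocyte genes was 1.47 to 1.79 on tip arrays and 1.63 to 1.77 on stalk arrays, against 0.27, 0.12 and 1.21 on the nonvascular arrays. Against nonvascular retina 7 of the 13 were higher in tip and 7 in stalk, with none lower. Among all genes 11.2% were higher in tip and 11.3% in stalk. Without nonvascular replicate 3 the count among the 13 was 8 higher in each, with 1 lower in tip. Over the 24 alternatives 2 to 8 were higher in tip, with 2 under the replicate block, and 4 to 8 in stalk, with 4 under array brightness in the model. Called in tip were Vim, an intermediate filament gene of astrocytes and Mueller glia (2.92), the gap junction gene Gja1 (1.90), Aldoc, a glycolytic enzyme of glia (1.65), and the folate enzyme gene Aldh1l1 (1.49). The red signal of Vim was saturated on 5 of the 6 tip arrays and on no stalk or nonvascular array, which limits its tip values. On nonvascular replicate 3 the glutamate transporter gene Slc1a3 stood at 4.61, against 2.85 and 2.31 on nonvascular replicates 1 and 2. The calcium-binding protein gene S100b stood at 4.45 there, against 1.89 and 2.22 on replicates 1 and 2. Not all of the 13 rose there: 7 lay at least 1 log2 unit above both other nonvascular arrays, while Gja1 was −3.41 to −3.14 on the 3 arrays. Several of these genes are also expressed by Mueller glia. Gfap and Pax2, which define retinal astrocytes, were dim and close to the reference RNA on all 13 arrays, at −0.08 to 0.35 and −0.29 to 0.13. Other genes of the list were close to the reference RNA as well. These were Aqp4 at 0.17 to 0.38, with brighter red signals of 217 to 852, Fgfr3 at −0.44 to −0.04 and Cd44 at −0.21 to 0.06. Whether the high Pdgfra level of nonvascular replicate 3 comes with more astrocyte RNA was not tested. Between tip and stalk limma called 0 of the 13 astrocyte genes, S100b (−0.94) alone had an unadjusted p under 0.05, and over the alternatives at most 1 was called.

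Pdgfa, the ligand that acts on astrocytes, went the opposite way to its receptor and was lower in both vessel groups than in nonvascular retina. Its log2 ratio in tip ranged between −0.86 and −0.10 with a median of −0.44. The stalk arrays stood at −0.25, −0.25, −0.36 and 0.24, and the nonvascular arrays at 0.92, 1.09 and −0.02. All tip arrays lay below all nonvascular arrays, and nonvascular replicate 3, the array with the high Pdgfra level, had the lowest Pdgfa level of its group and lay within the stalk range. Tip minus nonvascular was −1.13 ± 0.23 (SE), a 2.19-fold lower level (limma, adjusted p = 0.00225), and it was −1.47 without nonvascular replicate 3. Stalk minus nonvascular was −0.82 ± 0.25, a 1.76-fold lower level (limma, adjusted p = 0.0249), and −1.16 without nonvascular replicate 3 (adjusted p = 0.000911). The stalk call was lost in 6 of the 24 alternatives, with only the 2 groups in the fit (adjusted p = 0.0677) and without stalk replicate 1 (0.0552), stalk replicate 2 (0.0556), stalk replicate 3 (0.0626), nonvascular replicate 1 (0.109) or nonvascular replicate 2 (0.129). Tip minus stalk was −0.32 ± 0.21, with an interval of −0.77 to 0.14 (limma, adjusted p = 0.472).

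A second Pdgfa probe, 2.103 kb upstream, gave the same directions against nonvascular retina. It stood at −1.50 to −0.89 in tip with a median of −1.14, at −1.55, −1.52, −1.16 and −1.09 in stalk and at 0.13, −0.06 and −1.01 in nonvascular retina. Nonvascular replicate 3 was again the lowest of its group. Tip minus nonvascular was −0.86 ± 0.22 (limma over probes, adjusted p = 0.00906) and stalk minus nonvascular −1.02 ± 0.23 (adjusted p = 0.00493). Without nonvascular replicate 3 they were −1.21 for tip (adjusted p = 0.000111) and −1.37 for stalk (adjusted p = 6.37e-05). Between tip and stalk the probes had opposite signs, and neither was called: this probe differed by 0.15 ± 0.20 (adjusted p = 0.744). Over all probes 2.49% were called in tip minus stalk, 26.9% in tip minus nonvascular and 28.8% in stalk minus nonvascular. Most of the 14 ganglion cell genes moved in the same direction as Pdgfa. Of the 14, 12 were lower in tip and 11 in stalk than in nonvascular retina, with medians of −2.38 in tip and −2.98 in stalk. Among all genes 16.8% were lower in tip and 18.6% in stalk. Examples lower in tip were the glutamate transporter gene Slc17a6 (−3.03), the axon growth gene Gap43 (−2.94) and the neurofilament gene Nefm (−2.31). Pou4f1 was called in neither comparison (−0.09 in tip, −0.11 in stalk), nor was Pou4f3 (0.02 in tip, 0.14 in stalk). Pou4f2 was lower in tip (−0.22) and not called in stalk (−0.12). On nonvascular replicate 3, where Pdgfa was lowest of its group, the mean of the 14 genes was 2.61. That lay between replicate 1 (2.50) and replicate 2 (2.86). The part of ganglion cell RNA in the Pdgfa difference was not tested.

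**Figure D3:**
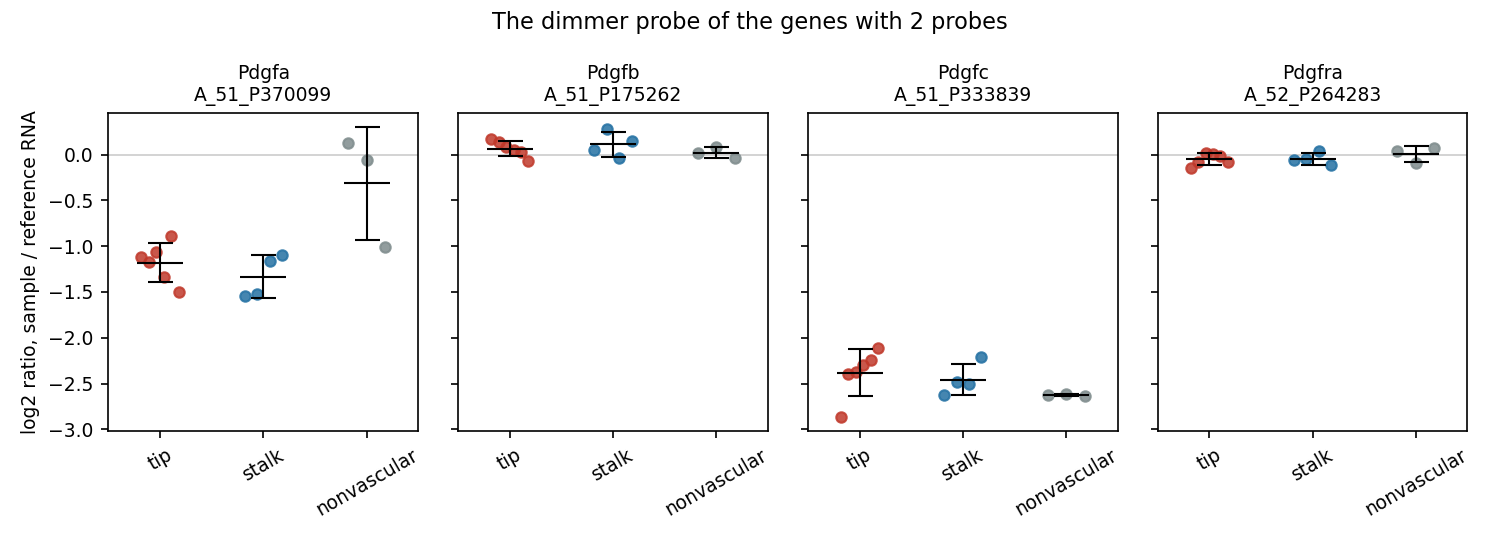
Log2 ratio of sample over reference RNA on the vertical axis for the dimmer probe of the 4 genes with a pair of probes, 1 point per array, for tip (n = 6), stalk (n = 4) and nonvascular (n = 3) samples, with mean and SD. The second Pdgfa probe is lower in tip and stalk than on nonvascular replicates 1 and 2, while the second probes of Pdgfb and Pdgfra stay near 0 on all 13 arrays.

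The promoters of Pdgfa and Pdgfra are shown because this ligand and its receptor, the astrocyte pair, differed in opposite directions between vessel and nonvascular samples. The sequences come from RefSeq (GRCm38.p6), run 5′ to 3′ on the gene's strand and are windows of 300 bases around an annotated start. Of the 2 Pdgfa windows in the table, the one with more motif matches is printed. Capitals mark GC boxes (GGGCGG or its reverse complement CCGCCC).
Pdgfa, chr5:138994895-138995194, minus strand: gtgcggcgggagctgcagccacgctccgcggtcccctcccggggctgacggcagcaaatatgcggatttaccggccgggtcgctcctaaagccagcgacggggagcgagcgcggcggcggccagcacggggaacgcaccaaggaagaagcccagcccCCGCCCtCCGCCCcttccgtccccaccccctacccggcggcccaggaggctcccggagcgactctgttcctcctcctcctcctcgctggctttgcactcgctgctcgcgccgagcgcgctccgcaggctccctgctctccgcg
Pdgfra, chr5:75152001-75152300, plus strand: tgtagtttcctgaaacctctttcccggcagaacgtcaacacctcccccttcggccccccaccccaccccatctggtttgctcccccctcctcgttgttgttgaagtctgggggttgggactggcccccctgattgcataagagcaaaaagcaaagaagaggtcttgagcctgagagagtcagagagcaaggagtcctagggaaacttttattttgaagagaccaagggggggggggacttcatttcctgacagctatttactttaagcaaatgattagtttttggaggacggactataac
The Pdgfa window held 2 GC boxes, which did not overlap, and the Pdgfra window held none. The other Pdgfa window held 1. Of 32851 promoter windows of the same length, 35.7% held a GC box. Since the printed Pdgfa window was picked for its matches, its count is not set against that share. Neither window held TATAAA or CCAAT on either strand, which 13.6% and 37.4% of all windows held. These matches describe letters in the windows and are not evidence of binding.

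Pdgfc encodes a latent ligand of PDGFR-alpha that tissue plasminogen activator can cut. Its log2 ratio in tip ranged between −2.03 and −1.43 with a median of −1.69. The stalk arrays stood at −1.98, −1.72, −1.89 and −1.52 and the nonvascular arrays at −1.84, −2.14 and −2.02, and all 3 ranges overlapped. Tip minus stalk was 0.08 ± 0.12 (SE), with an interval of −0.17 to 0.33 (limma, adjusted p = 0.776). Tip minus nonvascular was 0.30 ± 0.13, with an interval of 0.02 to 0.57 (adjusted p = 0.104), and stalk minus nonvascular was 0.22 ± 0.14 (adjusted p = 0.267). Without tip replicate 1, tip minus nonvascular was 0.36 and was called (adjusted p = 0.0279). Pdgfc was below its level in the reference RNA on all 13 arrays, with red signals of 61.7 to 201 and green signals of 212 to 262. A second Pdgfc probe, 0.153 kb upstream, stood at −2.86 to −2.12 in tip with a median of −2.33, at −2.62 to −2.21 in stalk and at −2.64 to −2.61 in nonvascular retina. It was called in no comparison either (limma over probes, adjusted p = 0.799, 0.217 and 0.445 for tip minus stalk, tip minus nonvascular and stalk minus nonvascular).

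Pdgfd encodes a latent ligand of PDGFR-beta that urokinase can cut. Its probe was dim in both channels, with red signals of 24.6 to 107 and green signals of 32.7 to 63.8, a range where the offset of 50 added in background correction pulls ratios towards 0. Levels were −0.08 to 0.35 in tip with a median of 0.17, 0.10, 0.27, 0.01 and 0.03 in stalk, and 0.09, 0.06 and 0.18 in nonvascular retina. The groups overlapped, and the differences were 0.04 ± 0.08 for tip minus stalk, 0.03 ± 0.09 for tip minus nonvascular and −0.00 ± 0.09 for stalk minus nonvascular (limma, adjusted p = 0.85, 0.84 and 0.979). The 95% confidence intervals were −0.13 to 0.21 for tip minus stalk, −0.15 to 0.22 for tip minus nonvascular and −0.21 to 0.20 for stalk minus nonvascular.

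Another probe is described in the files as platelet-derived growth factor D but carries no symbol, so it is no member. It averaged 1.09 ± 0.18 in tip (SD, n = 6), 0.94 ± 0.18 in stalk (SD, n = 4) and 0.50 ± 0.26 in nonvascular retina (SD, n = 3). Its ranges overlapped, and the differences were 0.58 ± 0.13 for tip minus nonvascular (limma over probes, adjusted p = 0.00461) and 0.43 ± 0.14 for stalk minus nonvascular (adjusted p = 0.0357), so this probe was called where the Pdgfd probe was not. Tip minus stalk was 0.15 ± 0.12 (adjusted p = 0.573). A probe described as platelet-derived growth factor C stood at group means of 0.09 in tip, 0.11 in stalk and 0.14 in nonvascular retina and was not called (limma over probes, adjusted p = 0.927, 0.578 and 0.711).

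**Figure D4:**
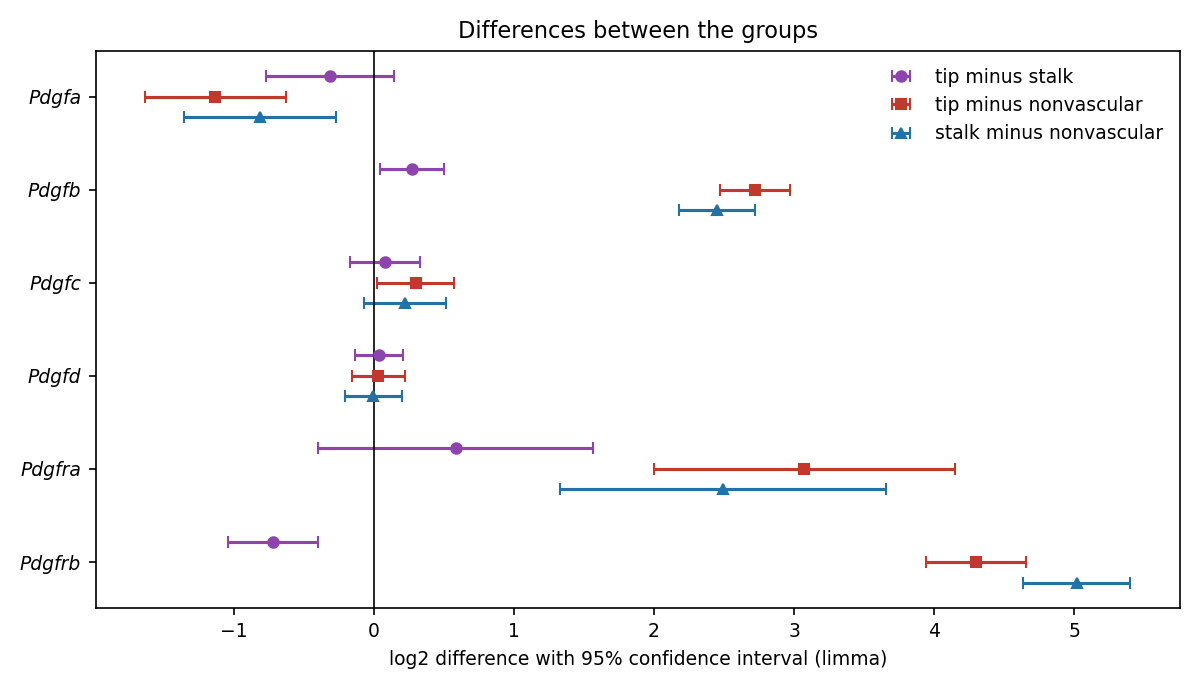
Log2 difference with its 95% confidence interval from limma on the horizontal axis for each of the 6 genes, as tip minus stalk, tip minus nonvascular and stalk minus nonvascular. Only for Pdgfa does the interval lie below 0 in both comparisons with nonvascular retina, with differences of −1.13 for tip and −0.82 for stalk, and the intervals of Pdgfra are the widest.

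Other genes of the pathway act on the ligands before binding, or next to the receptors after it. Of 31 such genes 29 were tested, since Pcsk5 and Pcsk6 had no probe under these names. Between tip and stalk 1 was higher and 1 was lower, where 2.78% of all genes were called, with a median difference of 0.03 against 0.00 for all genes. Plau, which encodes the urokinase that cuts PDGF-D, was higher in tip by 0.46 ± 0.11 (SE), at −0.30 in tip and −0.76 in stalk (limma, adjusted p = 0.0469). This call was lost in 18 of the 24 alternatives, with a difference of 0.18 to 0.55 and an adjusted p of 0.00299 to 0.315 over all of them. Among the 18 were the fits without any single one of tip replicates 1 to 5, without any stalk array and without nonvascular replicate 1 or 2. Slc9a3r2, which encodes a PDZ scaffold that binds the tail of PDGFR-beta, was lower in tip by −0.98 ± 0.13, at 1.39 in tip and 2.36 in stalk (limma, adjusted p = 0.00155), and it was called in all 24 alternatives. Furin, a protease of the secretory pathway that cuts PDGF precursors, had means of 1.86 in tip and 2.20 in stalk and was not called (limma, adjusted p = 0.197).

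Against nonvascular retina 8 of these 29 genes were higher and 2 lower in tip, with a median of 0.08. In stalk 7 were higher and 3 lower, with a median of 0.09, while the median of all genes was −0.01 in tip and −0.00 in stalk. The 10 called genes in each comparison stood beside 28% of all genes called in tip and 29.9% in stalk, so their share was near that of all genes. Plat, which encodes the tissue plasminogen activator that cuts PDGF-C, was higher by 0.99 in tip and 1.04 in stalk. Furin was higher by 0.97 in tip and 1.30 in stalk, the adaptor gene Shc1 by 0.93 in tip and 0.88 in stalk, and the phosphoinositide 3-kinase subunit gene Pik3r1 by 0.75 in tip and 1.01 in stalk. Slc9a3r1, the sister scaffold of Slc9a3r2, was higher by 1.04 in tip and 0.87 in stalk. The adaptor gene Grb2 was lower by −0.94 in tip and −0.80 in stalk, and the adaptor gene Nck2 by −0.53 in tip and −0.59 in stalk, though Nck2 was not called in 7 of the 24 alternatives in tip and in 6 in stalk.

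Other cell types can carry PDGF receptors, so their markers are given beside them. Oligodendrocyte precursors express PDGFR-alpha, and the mean of 5 of their genes was 0.10 to 0.26 in tip, 0.15 to 0.22 in stalk and 0.16 to 0.26 in nonvascular arrays, with the sialidase gene Neu4 (0.26) higher and the proteoglycan gene Cspg5 (−0.35) lower in tip than in nonvascular retina. Each of these calls was lost in 3 of the 24 alternatives, and the Cspg5 difference ranged between −0.93 and 0.06. Olig1 (0.00), Olig2 (−0.12) and Gpr17 (0.07) were not called in this comparison. All 3 were dim, and Olig1 was well above background on only 5 of 13 arrays. Fibroblasts can carry both receptors, and the mean of 7 of their genes was −3.32 to −2.51 in tip, −2.62 to −2.09 in stalk and −3.57 to −3.40 in nonvascular arrays. Of these 7 genes, 3 were higher in tip than in nonvascular retina, 5 were higher in stalk, and 1, the matrix gene Fbln1 (−0.95), was lower in tip than in stalk. Among all genes 11.2% were higher in tip and 11.3% in stalk than in nonvascular retina, and 1.32% were lower in tip than in stalk. The dim photoreceptor genes held 0 calls of 8 between tip and stalk, none with an unadjusted p under 0.05. Against nonvascular retina 4 of the 8 were lower in tip and 3 in stalk, where 16.8% and 18.6% of all genes were lower. In both of these comparisons 0 of the 8 were lower with the red channel alone and with the replicate block. In stalk this held also with only the 2 groups and with array brightness. The part of these cells in the receptor levels was not tested.

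For each gene the genes most like it were found as those whose ratios, each centred on its own mean, lay closest over the 13 arrays by root mean square difference. Pdgfb lay closest to Cavin3, a caveolar coat gene (0.187), Fxyd5 (0.226) and Nrros (0.228), where its own SD over arrays was 1.16. For Pdgfrb these were the matrix Gla protein gene Mgp (0.26), the thrombomodulin gene Thbd (0.269) and the adhesion gene Icam2 (0.311), with an SD of 2.05. The last 2 are known from endothelium. Pdgfra lay closest to the membrane metalloproteinase gene Mmp14 (0.24), the fibronectin gene Fn1 (0.25) and Cbr3 (0.363), with an SD of 1.46. For Pdgfa they were Prxl2a (0.24), Fam32a (0.244) and Dnajb4 (0.245), with an SD of 0.569, so they followed it less closely relative to its own range. Pdgfc (Sgk3, Zrsr2 and Trim30d, 0.095 to 0.11) and Pdgfd (Olfr619, Gbp7 and H2-M11, 0.0635 to 0.0736) varied so little, with SDs of 0.213 and 0.115, that closeness says little for them. The arrays share groups, reference RNA and scan order, so these values describe likeness only.

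**Figure D5:**
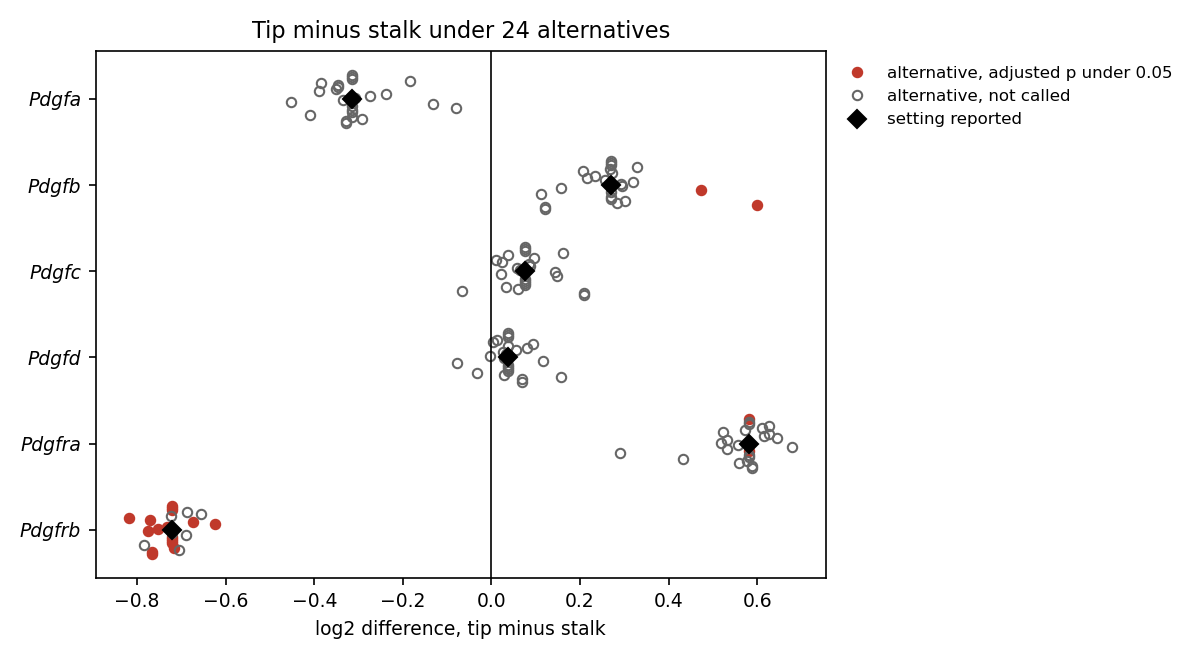
Log2 difference of tip minus stalk on the horizontal axis for each of the 6 genes under the reported setting (diamond) and 24 alternatives (circles, filled where the adjusted p was under 0.05). Pdgfrb stays between −0.82 and −0.62, Pdgfra and Pdgfb stay above 0, and the differences of Pdgfc and Pdgfd cross 0.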

How the data were processed

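RNA of 13 samples was labelled with Cy5 and hybridised beside Universal Mouse Reference RNA in Cy3, with no dye swap, per the labels. Scanner images were quantified in Agilent Feature Extraction (8.5.1.1), per the file headers, which yields an unnormalized mean intensity for every spot and a median intensity of the background around it. Its log10 ratio, per the file headers, divides background-subtracted and dye-normalized red by green signals. A separate deposited table gives the same quantity as a linear ratio and matched within 0.001 (log10) on at least 99.9% of probes. Flags for spots well above background, saturated or outlying are also those of the scanner software, per the file headers.

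Probes were named with RefSeq (GRCm38.p6): 22072 by their own accession, 142 by another accession and 1321 by a symbol given in the description, and the other 17639 kept the files' name. No probe position is given because the files name no genome build; distances between probes of a gene come from the files. From mean intensities and local backgrounds, log2 ratios were computed with normexp (offset 50) and loess within each array in limma (3.58.1; R 4.3.3), with control spots at weight 0 and outlier spots missing. Repeated spots were averaged, the brightest probe stood for its gene, and genes needed red signal well above background on at least 3 of 13 arrays. This left 31896 genes, 16598 with a symbol. The number of arrays limits the precision.

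Means of the 3 groups were fitted with lmFit and eBayes, with Benjamini-Hochberg adjustment over all genes of a comparison, and a second fit took every probe on its own. Named are the 6 genes with every probe, the list members with the smallest p (up to 3) for tip minus stalk and for tip minus nonvascular, and the 3 genes most like each of the 6. The text names only part of these. Pecam1, Rgs5, Cspg4, Gfap, Aqp4, Slc1a3, Shc1, Pik3r1, Nck2 and the probes described without a symbol were chosen after their values were seen. The same holds for Tie1, Erg, Foxd1, Cnn1, Fgfr3, Cd44, Pou4f1, Pou4f2, Pou4f3, Olig1 and Olig2. Genes, lists and tests were chosen with earlier results of these data known. Only the limma fit of tip minus stalk was tested on simulated data, as log2 ratios with known differences. The steps before the fit were not.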

Additional observations from a re-analysis of the deposited data

Results flagged for a closer look

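Among the genes, their probes and part of the list members, 76 items were searched for a single tip or stalk array that stood far from the rest of its group, which is 152 groups. The other list members were not searched and can hold such arrays too. Chance alone gives about 1 in 20, and 7 were found. One concerns a PDGF gene: the second Pdgfc probe stood at a log2 ratio of −2.86 on tip replicate 1, below the other tip arrays (−2.40 to −2.12). The probe was dim, with red signals of 27.8 to 96.4 over the arrays, and its red signal was 86.0 on tip replicate 1. On the same array the astrocyte and Mueller glia gene Vim stood at −1.59, below the others (−0.76 to −0.48), although its red signal was saturated on 5 of the 6 tip arrays, and the collagen gene Col1a1 at −4.79 (−3.54 to −3.35). The VEGF receptor gene Flt1 stood at 1.91 on tip replicate 6 (others 2.19 to 2.34), and Cspg5, a proteoglycan gene, at 0.181 on tip replicate 3 (others 0.41 to 0.53). S100b stood at 5.98 on stalk replicate 1 (others 5.66 to 5.71), and the glutamate transporter gene Slc17a6 at 0.697 on stalk replicate 4 (others 0.34 to 0.37). The nonvascular group, with 3 arrays, was not searched.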

How the results depend on the processing

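The differences of Pdgfb, Pdgfrb and Pdgfa in tip minus nonvascular and of Pdgfb and Pdgfrb in stalk minus nonvascular were called in the same direction under all 24 alternatives, as was Pdgfra in tip minus nonvascular. In stalk minus nonvascular Pdgfra was not called with the replicate block (2.45, adjusted p = 0.0574) and Pdgfa not with only the 2 groups (−0.82) or in 5 fits that each left out 1 stalk or nonvascular array. In tip minus stalk the count of called genes was 0 with median centring and with the replicate block, and 2 with only the 2 groups, where Pdgfra (0.58) was called. Pdgfrb was −0.70 with the red channel alone, −0.78 with median centring, −0.69 with array brightness and −0.72 with the replicate block, and Pdgfb reached 0.60 with the red channel and 0.47 with brightness. Uncalled small differences changed sign: Pdgfc in tip minus stalk (−0.0655 with the red channel alone), Pdgfd in tip minus stalk (−0.0333 with median centring, −0.0779 with brightness) and Pdgfd in stalk minus nonvascular (0.0421 with the Feature Extraction log ratio and with the deposited ratios, 0.29 with median centring, 0.0107 without background subtraction, 0.0409 with the red channel alone, 0.15 with brightness, 0.0188 with the block). Leaving out 1 array at a time gave Pdgfrb −0.82 to −0.62, Pdgfra 0.52 to 0.65, Pdgfd −0.00406 to 0.0931 and 0 to 2 called genes in tip minus stalk, Pdgfc 0.23 to 0.38 and Pdgfd −0.00889 to 0.0758 in tip minus nonvascular, and Pdgfa −1.16 to −0.61 and Pdgfd −0.0613 to 0.0295 in stalk minus nonvascular. In tip minus stalk it also gave −0.0252 to 0.0269 for the dim second probe of Pdgfra and −0.095 to 0.00872 for that of Pdgfb, and the second Pdgfc probe was −0.0809 in stalk minus nonvascular with the Feature Extraction log ratio. List medians near 0 changed sign for oligodendrocyte precursor genes (tip minus stalk 0.0206 with the red channel alone and 0.0241 with the mean of probes; tip minus nonvascular −0.0271 with the stricter filter and −0.0174 with the mean of probes; stalk minus nonvascular 0.49 with the Feature Extraction log ratio, 0.52 with the deposited ratios, 0.0893 with brightness, 0.00192 without background subtraction, 0.26 with median centring and 0.00322 with the stricter filter), for photoreceptor genes (tip minus stalk 0.0496 with the red channel alone) and for the PDGF pathway (tip minus stalk −0.0459 with median centring). The cause of these changes was not tested.

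Of all genes, 887 were called in tip minus stalk, against 251 with median centring, 224 with brightness, 525 without tip replicate 2, 543 without tip replicate 3, 1594 without tip replicate 6, 444 without stalk replicate 1 and 464 without stalk replicate 3. The labels give the groups shared replicate numbers, but same-numbered arrays did not deviate together (correlations of −0.14 to 0.08), and with the replicate block 452 genes were called. A block for the scan date was not run, because a date other than the main one holds only 1 array. For dim probes such as that of Pdgfd, the offset pulls ratios towards 0.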
